A study of Macaca mulatta with 24 samples.

Results

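The genes described here are endothelial identity and leukocyte adhesion genes of the ileum: the adhesion molecules VCAM1, ICAM1, SELE, SELP and MADCAM1, the junction and storage proteins PECAM1, CDH5 and VWF, and the receptors KDR and TEK. Their probes were chosen by gene symbol alone, in the deposited table of normalized ileum signals. Of the 10 genes, 9 had a probe, with 18 probes of 43603 on the array. A total of 15 of these probes, for 8 genes, were among the 36108 probes tested, since the 3 probes of SELE were too dim. No probe carried the symbol MADCAM1.

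Total RNA was measured in whole ileum tissue of 24 young-adult male rhesus macaques, with 1 single-color array for each animal. The animals received a single uniform total-body irradiation (TBI) with gamma rays from a cobalt source, or sham irradiation. There were 4 unirradiated controls, 4 animals on day 4 and 4 on day 7 at 6.7 Gy and as many at 7.4 Gy, and 2 animals on day 12 after each dose. The controls are labelled day 4 and served as baseline for every day, so the 6 comparisons with controls share the same 4 arrays and are not independent of each other. For the day 12 animals the protocol text in the labels names 21 days, while the titles and the day field say 12, and day 12 was used. The tissue was not separated into layers or cells, and in such bulk samples fewer or more cells of a type cannot be told apart from less or more RNA in each cell.

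Endothelial cells line blood and lymph vessels and hold together through the cadherin CDH5 and the adhesion molecule PECAM1. When stimulated by cytokines, the cells of small veins place selectins and immunoglobulin-type adhesion molecules on their surface, and passing leukocytes roll on the selectins and then bind firmly through integrins. In the gut, MADCAM1 and VCAM1 are the ligands by which lymphocytes carrying alpha-4 integrins enter the tissue. KDR, the main signalling receptor for VEGF, and TEK, the receptor for angiopoietins, keep endothelial cells alive and vessels stable.

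Signals are given as log2 of the background-subtracted intensity minus the 75th percentile of the array, so that 0 is the level of that percentile. The percentile lay between 837 and 1330 intensity units, and 72.7% to 88.1% of probes were well above background on an array. Any pair of arrays correlated between 0.965 and 0.990 over all probes, no probe was saturated, and precision is limited by how few arrays each group has. The arrays were scanned on 2 days. The 4 control arrays were all scanned on the first day and lay at position 1 of their slide, whereas the 4 arrays of day 4 at 7.4 Gy lay at position 2 and all arrays of days 7 and 12 at positions 3 and 4. Both arrays of day 12 at 7.4 Gy were scanned on the second day. Only day 4 at 6.7 Gy had arrays at both position 1, scanned on the second day, and position 2, scanned on the first. So a position adjustment on day 4 rests on that group and cannot be told apart from scan day. The controls share no position with days 7 and 12, so position cannot be told apart from group in those comparisons. Epithelial markers were present (8 of 10 listed genes tested, among them VIL1, CDX2 and EPCAM), while CDH1 and ALPI had no probe by symbol. A gene is read from its brightest tested probe unless another probe is named, and altered means at least a 2-fold change together with an adjusted p below 0.05. The adjusted p comes from limma and is corrected by the Benjamini-Hochberg procedure across the 36108 probes.

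VCAM1 was higher on day 4 after both doses and overlapped the controls on days 7 and 12. VCAM1 is the endothelial ligand of the alpha-4 integrins. The 4 controls read -0.17, -0.38, -0.24 and 0.32 on the log2 scale. The animals on day 4 read 0.51, 1.15, 1.12 and 0.94 at 6.7 Gy and 1.16, 1.04, 0.72 and 0.67 at 7.4 Gy. All 8 irradiated animals of day 4 lay above all 4 controls. The change was 1.05 (SE 0.26, 95% confidence interval 0.50 to 1.60, 2.07-fold, adjusted p = 0.04) at 6.7 Gy and 1.01 (SE 0.26, 0.46 to 1.56, 2.02-fold, adjusted p = 0.027) at 7.4 Gy. VCAM1 was the member altered at 6.7 Gy, 1 of 8, where 0.698% of the 14193 genes tested were altered upward. Its groups were also the ones that did not overlap there, a pattern that 4.44% of all genes showed in the upward direction.

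On day 7 VCAM1 read 0.22, 0.68, 0.32 and 0.10 at 6.7 Gy and 0.21, 0.21, -0.60 and -0.08 at 7.4 Gy. On day 12 it read 0.30 and -0.94 at 6.7 Gy and -0.23 and 0.73 at 7.4 Gy. Both days overlap the controls, and each pair of day 12 animals differed by more than the whole range of the controls. The changes against the controls were 0.45 and 0.05 on day 7 and -0.20 and 0.37 on day 12, with adjusted p between 0.65 and 0.95. Tested directly, with the doses averaged, VCAM1 was lower on day 7 than on day 4 (-0.78, SE 0.19, adjusted p = 0.01) and lower on day 12 than on day 4 (-0.95, SE 0.23, adjusted p = 0.0093). The day 12 difference did not pass without the second day 12 animal at 6.7 Gy (-0.64, adjusted p = 0.08) or the first at 7.4 Gy (-0.71, adjusted p = 0.087).

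The size of the day 4 rise of VCAM1 was close to the 2-fold limit, and its call depended on the setting. Under 15 settings of the processing and fit the change at 6.7 Gy lay between 0.95 and 1.15 and was called in 7, and at 7.4 Gy it lay between 0.81 and 1.22 and was called in 10. Leaving out 1 array in turn gave 0.96 to 1.19 with 2 of 8 calls at the lower dose, kept without control 4 or animal 1, and 0.93 to 1.16 with 3 of 8 calls at the higher dose, kept without control 4, animal 3 or animal 4. With array position as a covariate the changes were 0.95 (adjusted p = 0.17) and 0.81 (adjusted p = 0.4). This position term rests on the 6.7 Gy arrays of day 4 alone. Within a slide that held a control, VCAM1 was higher than that control in 2 of 2 animals at 6.7 Gy (by 1.29 and 1.32) and in 2 of 2 at 7.4 Gy (by 0.72 and 1.40). There the control lay at position 1 and these animals at position 2. On the arrays of the first scan day alone, where all controls were scanned, the changes were 1.15 (adjusted p = 0.079) and 1.22 (adjusted p = 0.064). With both doses of day 4 averaged the change was 1.03 (SE 0.23, adjusted p = 0.01).

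**Figure D1:**
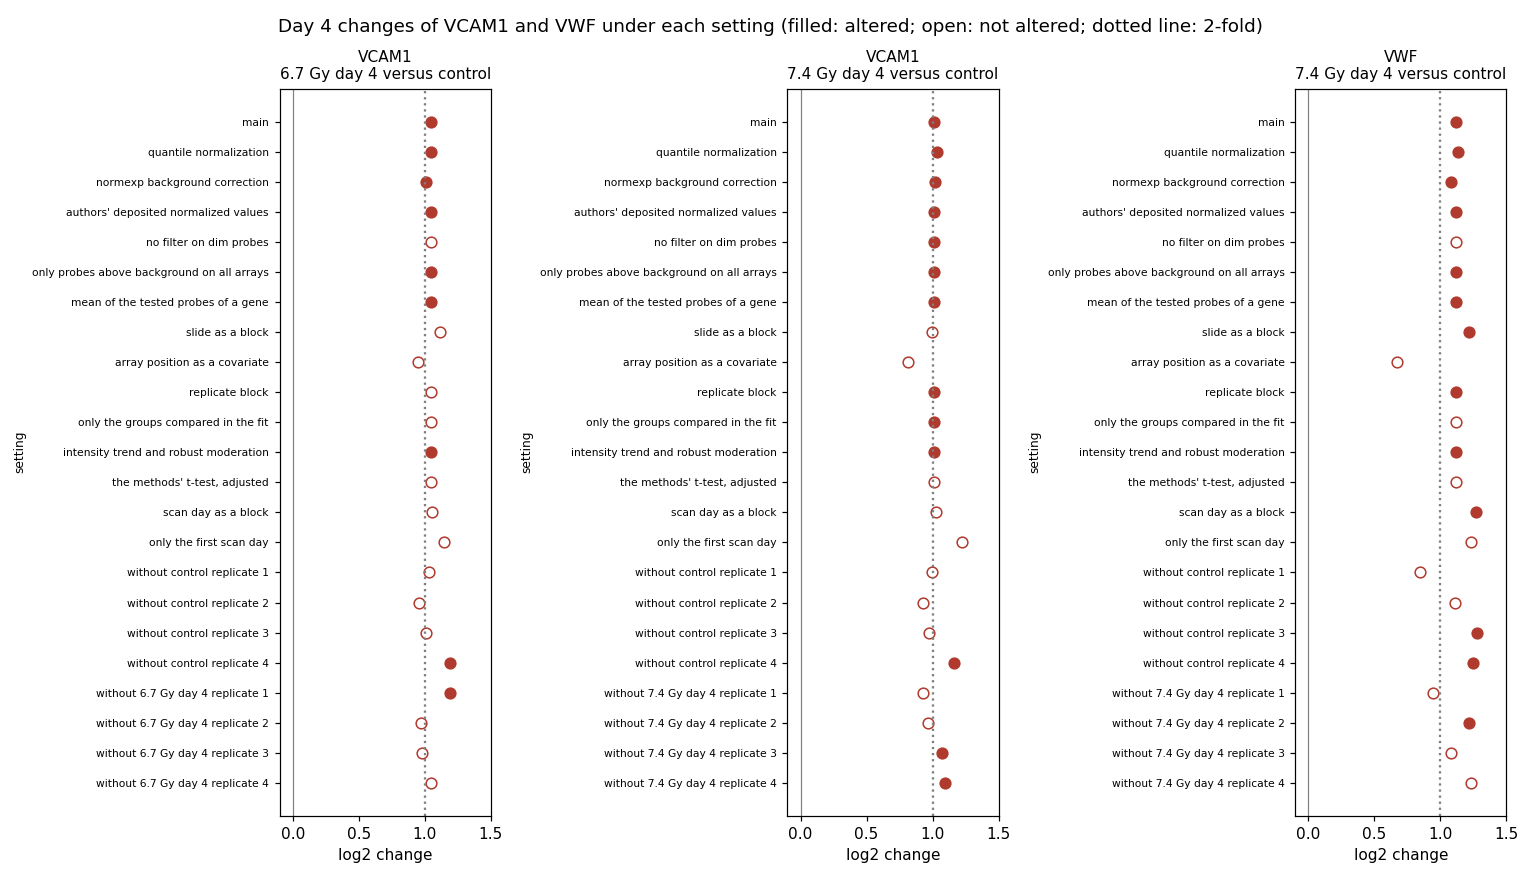
The log2 change (x axis, irradiated minus control) of VCAM1 after both doses and of VWF at 7.4 Gy on day 4 under each setting that used an adjusted p and with each array left out (y axis). Filled points were called altered, open points were not, and the dotted line marks a 2-fold change. The changes sit around the 2-fold line, at 0.81 or above for VCAM1 and at 0.67 or above for VWF.

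**Figure D2:**
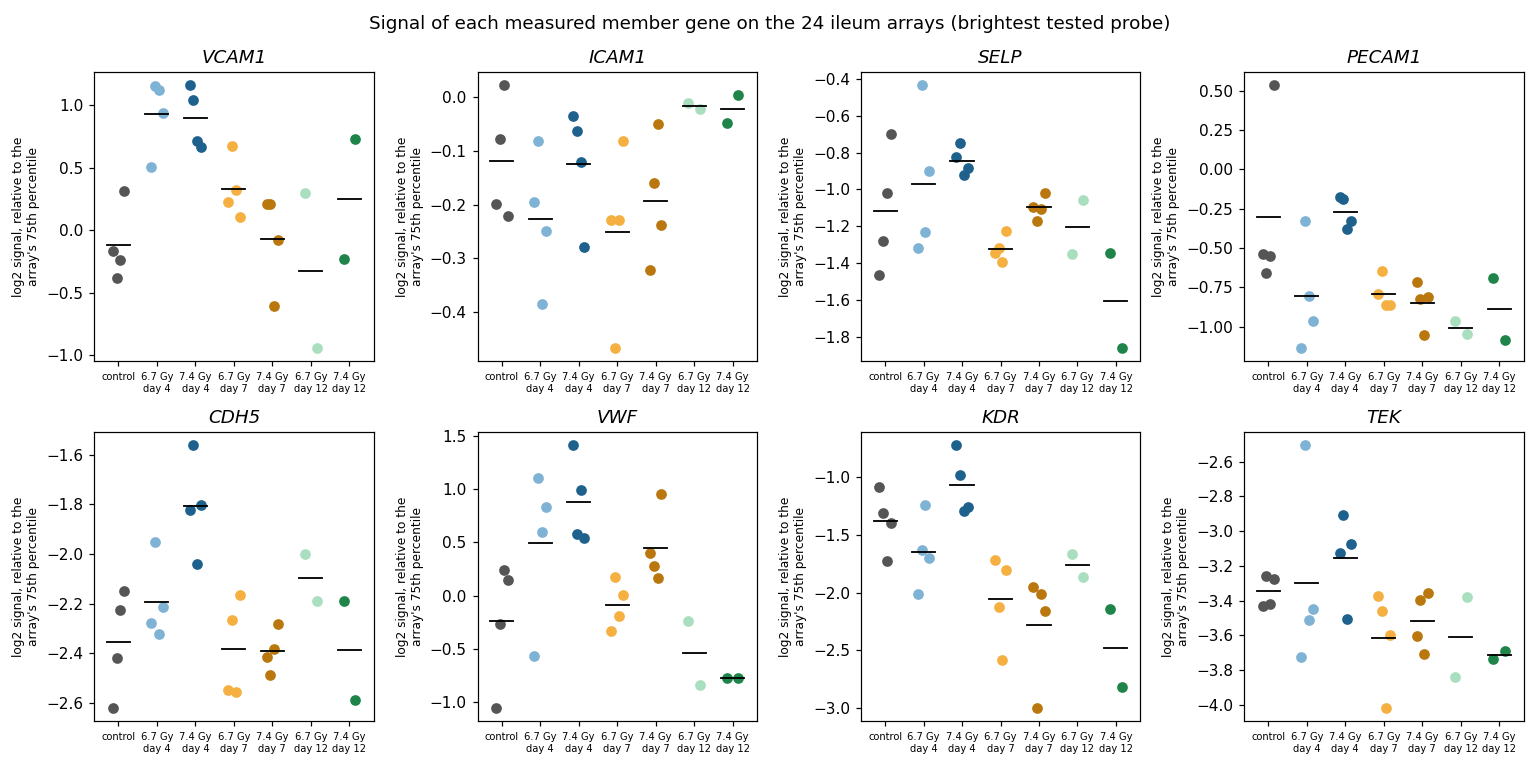
The log2 signal relative to the 75th percentile of the array (y axis) for each of the 8 measured genes in the 7 groups (x axis); each point is 1 animal and each bar a group mean. VCAM1 lies above all controls in the 8 animals of day 4, and the groups of ICAM1 overlap in every comparison with the controls.

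ICAM1, the endothelial ligand of integrin ITGAL with ITGB2, passed the test in no comparison. Its signal lay between -0.47 and 0.02 on all 24 arrays. The means were -0.12 ± 0.11 (SD, n = 4) in controls, -0.23 ± 0.13 (SD, n = 4) on day 4 at 6.7 Gy and -0.12 ± 0.11 (SD, n = 4) at 7.4 Gy. The changes in the 6 comparisons ran from -0.13 to 0.10 and all their 95% confidence intervals lay within -0.35 and 0.37, so a 2-fold change of this probe was outside the interval in every comparison. Its other probes were well above background on all 24 arrays and none of their changes passed. The dimmest of them read higher in all 4 animals of day 4 at 7.4 Gy than in any control (0.36, adjusted p = 0.14). The 3 probes of ICAM1 barely moved together, with Pearson r over the 24 arrays of 0.04, 0.18 and -0.17, so the level of ICAM1 rests on the choice of probe.

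Of the selectins, SELE could not be followed. SELE, or E-selectin, appears on endothelium only after stimulation, and its 3 probes were well above background on 1, 0 and 0 of the 24 arrays. The single detection was at -6.48, in an animal of day 4 at 7.4 Gy, and no change is given. SELP, or P-selectin, is stored in endothelial cells and platelets and rolls leukocytes when released. The controls read -1.47, -1.28, -1.02 and -0.70, the day 4 animals -1.32, -0.43, -1.23 and -0.90 at 6.7 Gy and -0.82, -0.75, -0.92 and -0.88 at 7.4 Gy. These groups overlap, and the changes of 0.15 and 0.27 did not pass (adjusted p = 0.63 and 0.36). The second probe of SELP had means of -4.63 in controls and -4.02 and -4.11 on day 4, again with overlap.

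On day 12 SELP read -1.35 and -1.06 at 6.7 Gy and -1.35 and -1.86 at 7.4 Gy. With the doses averaged it was lower than on day 4 (-0.50, SE 0.15, adjusted p = 0.031), and its second probe showed the same direction (-0.93, adjusted p = 0.016). The difference of the first probe did not pass without the first day 12 animal at 6.7 Gy (-0.42, adjusted p = 0.13) or the second at 7.4 Gy (-0.37, adjusted p = 0.14). On day 7 the second probe was also lower than on day 4 (-0.70, adjusted p = 0.028), while the first was not past the threshold (-0.30, adjusted p = 0.11).

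MADCAM1, the mucosal addressin of gut venules, was not measured under its symbol. A probe with no symbol whose deposited description names a mucosal vascular addressin read -3.43, -3.32, -1.73 and -2.80 in controls. Its changes were -0.80 (adjusted p = 0.18) and -0.51 (adjusted p = 0.4) on day 4, -0.25 and -0.49 on day 7, and 0.18 and -0.86 on day 12. None passed, and this probe is counted nowhere among the members.

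VWF, the multimeric protein that endothelial cells secrete to capture platelets, rose on day 4 at 7.4 Gy. The controls read -1.06, -0.27, 0.24 and 0.14, and the animals of day 4 at 7.4 Gy 1.41, 0.58, 0.995 and 0.55. All 4 irradiated animals lay above all 4 controls. The change was 1.12 (SE 0.32, 95% confidence interval 0.45 to 1.79, 2.17-fold, adjusted p = 0.041). With VCAM1 it made 2 altered members of 8 in this comparison, where 1.87% of all genes tested were altered upward. After 6.7-Gy TBI the animals read -0.57, 1.11, 0.60 and 0.83, of which 1 lay within the controls, and the change of 0.73 (SE 0.32) did not pass (adjusted p = 0.18). The array at -0.57 decided this call, since without it VWF was altered (1.08, adjusted p = 0.047), and leaving out each array in turn gave 0.45 to 1.08. This array had the lowest share of probes above background of the 24 (72.7%) and was the lowest of its group for 6 of the 8 members (VCAM1, SELP, PECAM1, VWF, KDR and TEK). The part of array quality in these values was not tested. The dose difference of 0.39 was not past the threshold either (95% confidence interval -0.27 to 1.06, adjusted p = 0.89). It was 0.039 without the array at -0.57, and leaving out each of the 8 arrays in turn gave up to 0.60.

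The call of VWF on day 4 held in 10 of 15 settings, with changes from 0.67 to 1.27, and in 3 of 8 fits without 1 array, with changes from 0.85 to 1.28. The 10 include the methods' t-test at an unadjusted p, which did not pass once adjusted. The fits without 1 array that kept the call left out control 3, control 4 or animal 2. The change was 0.85 (adjusted p = 0.15) without control 1 and 0.94 (adjusted p = 0.14) without animal 1. The smallest value came with array position as a covariate (0.67, adjusted p = 0.63), and on the first scan day alone the change was 1.23 (adjusted p = 0.1). That position term rests on the 6.7 Gy arrays of day 4, including the one at -0.57. Within slides VWF was higher than the control of the slide in 2 of 2 animals at 7.4 Gy (by 0.44 and 1.17). Those animals lay at position 2 and the controls at position 1. On day 7 VWF read -0.34, 0.18, -0.19 and 0.01 at 6.7 Gy and 0.40, 0.28, 0.17 and 0.95 at 7.4 Gy, and on day 12 it read -0.23 and -0.84 at 6.7 Gy and -0.77 in both animals at 7.4 Gy. The animals of day 7 overlapped the controls, with 3 of the 4 at 7.4 Gy above all of them, and those of day 12 overlapped too. None of the changes passed, at 0.15 (adjusted p = 0.95) and 0.68 (adjusted p = 0.36) on day 7 and -0.30 (0.85) and -0.54 (0.81) on day 12. That of 0.68 was 0.41 without control 1, and at most 0.84 with another array left out.

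VWF fell from day 4 to day 12 and was the one member altered between days. The change was -1.34 (SE 0.28, 95% confidence interval -1.92 to -0.76, 2.53-fold lower, adjusted p = 0.004), where 1.53% of all genes tested were altered downward. Of the 12 animals, the 4 of day 12 were below 7 of the 8 of day 4, the exception being the day 4 animal at -0.57. The call was made in the 13 settings that could be fitted (-1.41 to -1.21) and in 12 of 12 fits without 1 array (-1.52 to -1.19, adjusted p at most 0.027). Array position and the first scan day alone were not among these settings: all day 4 arrays lay at positions 1 and 2 and all later arrays at positions 3 and 4, so day and position cannot be told apart in a comparison of day 4 with a later day. From day 7 to day 12 the change was -0.84 and did not pass (adjusted p = 0.18).

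CDH5, the cadherin of endothelial junctions, rose on day 4 at 7.4 Gy by less than 2-fold. The controls read -2.62, -2.42, -2.22 and -2.15 and the animals -1.82, -1.56, -2.04 and -1.80, so all irradiated animals were above all controls. The change was 0.55 (SE 0.14, 95% confidence interval 0.26 to 0.84, 1.46-fold, adjusted p = 0.025). The second, dimmer probe of CDH5 read -5.29, -5.46, -5.36 and -5.19 in controls and -4.42, -4.28, -4.64 and -4.04 in these animals, again without overlap. Its change was 0.98 (SE 0.24, 1.97-fold, adjusted p = 0.021). With array position as a covariate the first probe changed by 0.70 (adjusted p = 0.17), and on the first scan day alone by 0.66 (adjusted p = 0.07). Without 1 array the adjusted p stayed below 0.05 only where control 3, control 4 or animal 3 was left out, and was between 0.051 and 0.091 otherwise. With VCAM1 and VWF, CDH5 made 3 of 8 members that passed the adjusted p alone upward in this comparison, as 4.18% of all genes did. The same 3 members did not overlap with the controls, a pattern seen upward in 9.05% of all genes.

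After 6.7-Gy TBI CDH5 read -2.28, -1.95, -2.32 and -2.21 on day 4, with 3 of the 4 animals inside the range of the controls (0.16, adjusted p = 0.48; second probe 0.26, adjusted p = 0.51). By day 7 it was lower than on day 4 with the doses averaged (-0.39, SE 0.10, adjusted p = 0.014; second probe -0.58, adjusted p = 0.03). The difference kept an adjusted p under 0.05 with any 1 array left out. Against the controls CDH5 changed by -0.03 and -0.04 on day 7, and by 0.26 and -0.03 on day 12, none of which passed.

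PECAM1, which joins neighbouring endothelial cells and is also carried by platelets and leukocytes, passed the test against the controls in no group, and 1 control decided the size of its changes. The controls read -0.54, -0.66, -0.55 and 0.54, with the fourth far above the others. On day 4 the animals read -1.14, -0.33, -0.80 and -0.96 at 6.7 Gy and -0.17, -0.19, -0.38 and -0.33 at 7.4 Gy. The first of these groups overlaps the controls at its highest animal, and the second lies above the lower 3 controls. On day 7 they read -0.79, -0.64, -0.87 and -0.86 at 6.7 Gy and -0.71, -0.82, -1.05 and -0.81 at 7.4 Gy, and on day 12 -0.97 and -1.05 at 6.7 Gy and -0.69 and -1.08 at 7.4 Gy. Apart from 1 animal of day 7 at 6.7 Gy, all animals of days 7 and 12 were below all controls.

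The changes of PECAM1 were -0.51 (adjusted p = 0.16) and 0.03 (adjusted p = 0.94) on day 4, -0.49 (adjusted p = 0.45) and -0.55 (adjusted p = 0.25) on day 7, and -0.70 (adjusted p = 0.39) and -0.58 (adjusted p = 0.56) on day 12. None passed. Without the fourth control the 6 changes were -0.23, 0.31, -0.21, -0.27, -0.42 and -0.30. The second probe of PECAM1 followed the first over the 24 arrays (Pearson r = 0.84) and was lower on day 12 than on day 4 (-0.62, adjusted p = 0.027), where the first did not pass (-0.41, adjusted p = 0.11).

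KDR was lower on day 7 and on day 12 than on day 4. The controls read -1.09, -1.31, -1.73 and -1.40. On day 4 the animals read -2.02, -1.63, -1.25 and -1.71 at 6.7 Gy and -0.73, -0.99, -1.30 and -1.27 at 7.4 Gy, both overlapping the controls, and the changes of -0.27 and 0.31 did not pass (adjusted p = 0.51 and 0.46). On day 7 they read -1.72, -2.13, -2.59 and -1.80 at 6.7 Gy and -1.95, -3.00, -2.02 and -2.16 at 7.4 Gy. All 4 animals of the higher dose, and 3 of the 4 of the lower dose, were below all controls. On the second probe of KDR the change at 7.4 Gy was -0.22 (adjusted p = 0.66) and the animals overlapped the controls. At 6.7 Gy that probe read -3.59 to -3.19, below all controls (-3.02 to -2.84).

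Against the controls the change of KDR on day 7 was -0.68 (SE 0.24, adjusted p = 0.33) at 6.7 Gy and -0.90 (SE 0.24, 95% confidence interval -1.40 to -0.39, adjusted p = 0.086) at 7.4 Gy, and neither passed. Compared with day 4, with the doses averaged, the change on day 7 was -0.81 (SE 0.17, adjusted p = 0.0048), and that of the second probe was -0.45 (adjusted p = 0.044). This difference kept an adjusted p under 0.05 with any 1 array left out. Within slides, KDR was lower than the control of the slide in 4 of 4 animals of day 7 at 6.7 Gy (-0.85 to -0.41) and in 2 of 2 at 7.4 Gy (-0.92 and -0.84). On those slides the controls lay at position 1 and the day 7 arrays at positions 3 and 4, so position and group cannot be told apart.

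On day 12 KDR read -1.67 and -1.87 at 6.7 Gy and -2.14 and -2.81 at 7.4 Gy. The higher dose lay below all controls, with a change of -1.09 (SE 0.30) that did not pass (adjusted p = 0.19). With the doses averaged day 12 was lower than day 4 (-0.76, SE 0.21, adjusted p = 0.019; second probe -0.66, adjusted p = 0.016). That difference of the first probe did not pass without the second day 12 animal at 6.7 Gy (-0.71, adjusted p = 0.073) or the second at 7.4 Gy (-0.59, adjusted p = 0.093).

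On its brightest probe TEK stayed within -0.37 and 0.19 of the controls in all 6 comparisons and none passed. The controls read -3.43, -3.26, -3.42 and -3.28. A single animal of day 4 at 6.7 Gy, at -2.50, stood above the other 3 of its group, at -3.73, -3.51 and -3.45. On day 12 at 7.4 Gy both animals, at -3.73 and -3.69, were below all controls (-0.37, not passing). From day 4 to day 12 the change was -0.43 (adjusted p = 0.096). Its second probe, well above background on 13 of 24 arrays, had a mean of -6.08 in controls. After 6.7 and 7.4 Gy the means were -6.71 and -6.27 on day 4, and -6.91 and -6.99 on day 7. On day 12 they were -6.95 and -5.95.

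**Figure D3:**
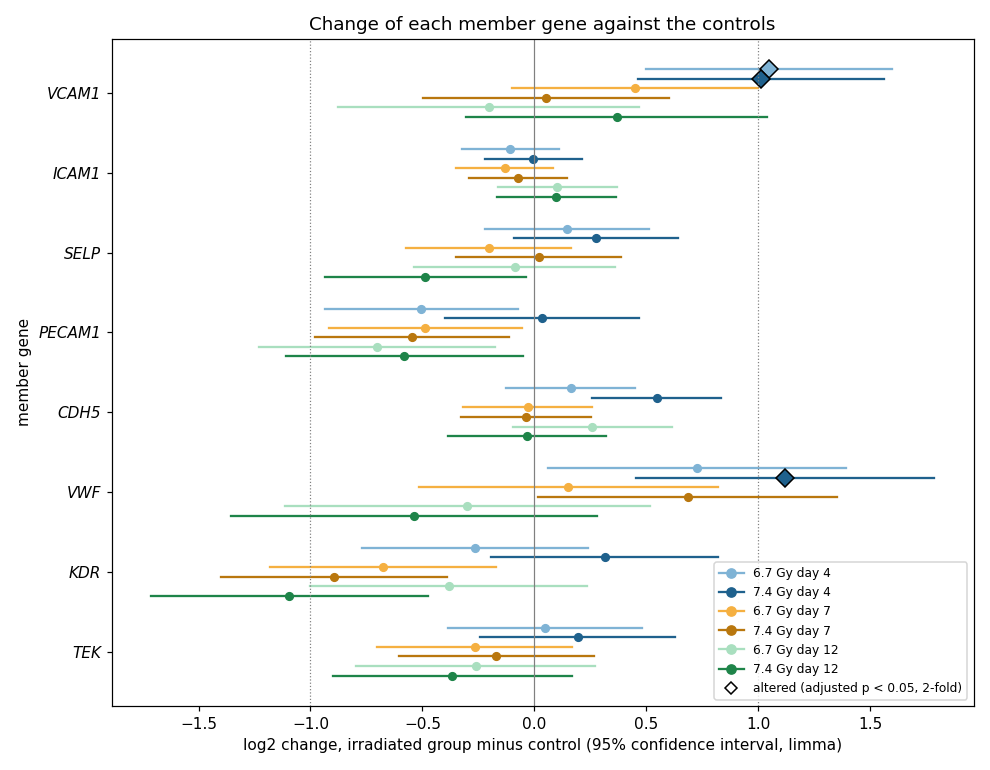
The log2 change against the controls (x axis) with its 95% confidence interval for each of the 8 measured genes (y axis) in the 6 irradiated groups; diamonds mark an adjusted p under 0.05 with at least a 2-fold change, and dotted lines mark 2-fold. Diamonds appear for VCAM1 on day 4 after both doses and for VWF on day 4 at 7.4 Gy.

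Over the 8 measured members, the median change on day 4 was 0.10 at 6.7 Gy, with 5 members above 0, beside a median of -0.07 over all tested genes. After 7.4-Gy TBI it was 0.29, with 7 of 8 above 0, beside -0.05. On day 7 the medians were -0.17 and -0.06 (all genes 0.00 and -0.02), and on day 12 they were -0.23 and -0.43 (all genes 0.05 and -0.02). Of the other endothelial genes, 14 of 17 were below 0 on day 7 at 6.7 Gy (median -0.11) and 15 of 17 on day 12 at 7.4 Gy (-0.32). T cell markers were below 0 on day 7 in 7 of 7 at both doses (medians -0.77 and -0.85), with 3 passing the adjusted p at 7.4 Gy. The part of these lists in the members' values was not tested. By limma, 0 of 8 members were altered on day 7 at 6.7 Gy, where 0.345% of all genes were altered in either direction, and 0 at 7.4 Gy, where 0.733% were. On day 12 the counts were also 0 and 0, beside 0.162% and 0.0423% of all genes. At an unadjusted p under 0.05 the member counts were 2 and 3 of 8 on day 7, where 9.71% and 13.9% of all genes passed, and 1 and 3 of 8 on day 12, where 9.53% and 8.79% did. Members whose animals all lay below all controls were PECAM1 and KDR on day 7 at 7.4 Gy (2 of 8, beside 4.36% of all genes), PECAM1 on day 12 at 6.7 Gy (1 of 8, beside 8.4%), and PECAM1, KDR and TEK on day 12 at 7.4 Gy (3 of 8, beside 10.1%). The methods' t-test, after adjustment, called 0 in each of these 4 comparisons and also 0 on day 4 at both doses.

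Between days most members read lower at the later day. From day 4 to day 7 all 8 members were below 0 with a median of -0.36, beside 0.03 over all genes. By limma 0 were altered, where 1.24% of all genes were, with 6 of 8 at an unadjusted p under 0.05, as 31.3% of all genes were, and 0 by the methods' t-test after adjustment. VCAM1, CDH5 and KDR passed the adjusted p alone, 3 of 8, where 6.59% of all genes did in the downward direction. Other lists read lower too: 15 of 17 other endothelial genes (median -0.40), 7 of 7 macrophage markers (-0.48, 4 passing the adjusted p), 6 of 6 pericyte markers (-0.49) and 8 of 9 fibroblast markers (-0.45), while epithelial markers had a median of 0.33. Follicular dendritic cell markers were lower in 4 of 6 (-0.50). The part of these lists in the lower values of the members was not tested. From day 4 to day 12 the median was -0.47, beside 0.06, and 4 of 8 passed the adjusted p alone downward (VCAM1, SELP, VWF and KDR), where 8.34% of all genes did. The same lists had medians of -0.63 (other endothelial genes), -0.49 (macrophage), -0.68 (pericyte), -0.72 (fibroblast), -0.86 (follicular dendritic cell, 5 of 6 lower) and 0.42 (epithelial). From day 7 to day 12 the median was -0.11, beside 0.02, and 0 were altered, where 0.113% of all genes were, with 2 of 8 at an unadjusted p under 0.05 (ICAM1 and VWF), as 15.2% of all genes were, and 0 by the methods' t-test after adjustment.

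Between the doses, 7 of 8 members read higher at 7.4 Gy than at 6.7 Gy on day 4, with a median of 0.26 beside 0.03 over all genes. Other lists read higher at 7.4 Gy too: 16 of 17 other endothelial genes (median 0.27), 7 of 7 macrophage markers (0.32), 7 of 7 T cell markers (0.22), 6 of 6 pericyte markers (0.49), 5 of 5 smooth muscle markers (0.33) and 8 of 9 fibroblast markers (0.33). The 6.7 Gy array with the lowest share of probes above background was also the lowest of its group for 6 of the 8 members. The part of these lists and of that array in the differences between the doses was not tested. The differences were 0.54 for PECAM1 (95% confidence interval 0.11 to 0.97), 0.38 for CDH5 (0.10 to 0.67) and 0.58 for KDR (0.07 to 1.09), each with an adjusted p of 0.88. VCAM1 differed by -0.03 (-0.58 to 0.52). By limma 0 members were altered between the doses on day 4, on day 7 and on day 12, where 0%, 0% and 0.00705% of all genes were. At an unadjusted p under 0.05 the counts were 3, 0 and 0, where 5.64%, 4.26% and 6.09% of all genes passed, and by the methods' t-test after adjustment 0, 0 and 0.

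Where a gene had more than 1 tested probe, the probes were compared over the 24 arrays. Pearson r was 0.87 for SELP, 0.84 for PECAM1, 0.74 for CDH5, 0.71 for KDR and 0.52 for TEK, as a description of arrays that share their groups. VCAM1 and VWF had 1 probe each, so their changes have no second probe to set beside them.

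**Figure D4:**
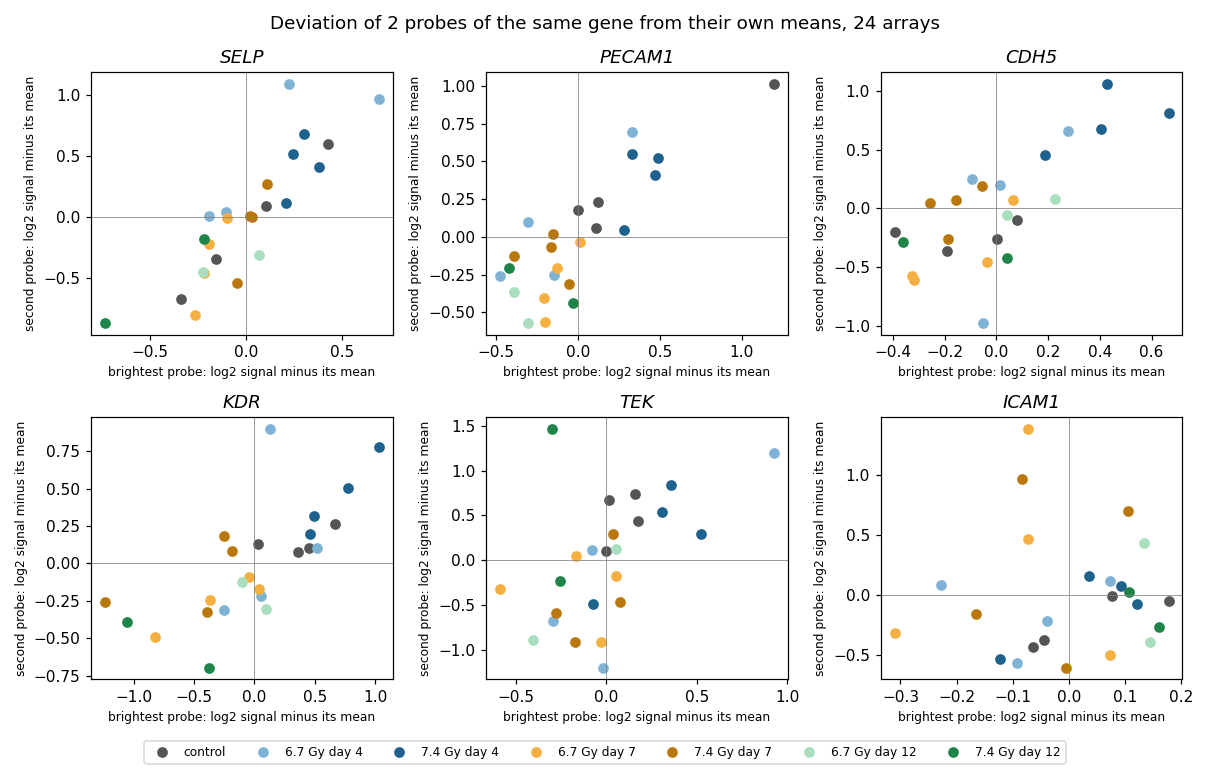
The log2 signal of the brightest probe minus its mean (x axis) against that of the second probe (y axis) for 6 genes, 1 point for each of the 24 arrays, colored by group. The points of SELP, PECAM1, CDH5 and KDR run along a diagonal (Pearson r from 0.71 to 0.87), and those of ICAM1 do not (r = 0.04).

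Among the members, the highest correlations over the 24 arrays were between SELP and TEK (Pearson r = 0.74), SELP and VWF (0.74) and SELP and CDH5 (0.70). VCAM1 correlated most with VWF (0.59), and ICAM1 stood apart, between -0.30 and 0.22 with every other member. Over 14192 other genes, the patterns most like VCAM1 were those of CCL19 (0.87), CORO1C (0.81) and CD81 (0.79). For VWF these were COL6A3 (0.89), TLE1 (0.88) and ADGRL4 (0.87), for CDH5 they were led by TIE1 (0.83) and for KDR by RGS10 (0.83). SELP was led by LOC706667 (0.85), PECAM1 by MEF2C (0.85), TEK by ANXA1 (0.86) and ICAM1 by ZBBX (0.78). These values describe 24 arrays that share groups and depth.

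Other endothelial identity genes were read beside the members, and how closely they follow endothelial RNA in this tissue was not tested. Of 30 listed genes 17 were tested. On day 4, 11 of 17 were above 0 at 6.7 Gy with a median of 0.22, and 15 of 17 at 7.4 Gy with a median of 0.51. None was altered, and ADGRL4 (0.99, adjusted p = 0.017) and MYCT1 (0.78, adjusted p = 0.037) passed the adjusted p at the higher dose. Their summed level ranged from 2.42 to 3.10 in controls, 2.71 to 3.49 on day 4 at 6.7 Gy and 3.01 to 3.41 at 7.4 Gy. On day 12, ERG (-1.002, adjusted p = 0.0034) and GATA2 (-1.09, adjusted p = 0.013), both transcription factors of endothelium, were altered relative to day 4.

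As a description without a test, relative to the mean of those 17 genes on the same array, VCAM1 read higher than in controls on day 4, by 0.90 at 6.7 Gy and 0.61 at 7.4 Gy, and on day 7 at 6.7 Gy, by 0.60, all without overlap. On this scale 1.32%, 2.16% and 8.08% of all genes lay above the controls without overlap in these 3 comparisons. On day 7 at 7.4 Gy the difference of VCAM1 was 0.07 and on day 12 it was -0.06 and 0.70, with overlap. VWF at 7.4 Gy read higher without overlap on day 4 (0.71) and on day 7 (0.70), and at 6.7 Gy its differences were 0.58 and 0.30, with overlap. On day 7 at 7.4 Gy 3.83% of all genes lay above. CDH5 was at 0.01 and 0.14 on day 4, with overlap, and at 0.41 and 0.30 on day 12, without overlap, as 19.9% and 29.2% of all genes were. PECAM1 had differences on day 4 of -0.66 without overlap at 6.7 Gy and -0.37 with overlap at 7.4 Gy, and on day 12 of -0.55 without overlap and -0.25 with overlap. At 6.7 Gy 5.35% of all genes lay below the controls without overlap on day 4 and 2.97% on day 12. ICAM1 on day 12 at 7.4 Gy was at 0.43 without overlap, where the share of all genes was the 29.2% above. All differences of SELP, KDR and TEK overlapped, that of KDR on day 7 at 7.4 Gy being -0.88.

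Among 6 tested of 10 listed genes of venules and high endothelial venules, the vessels through which lymphocytes enter lymphoid tissue, ACKR1, the venular chemokine receptor, was altered on day 4 after both doses (1.22, adjusted p = 0.011, and 1.59, adjusted p = 0.00083). So were the chemokine CCL21 (1.12, adjusted p = 0.0057, and 1.23, adjusted p = 0.0016) and, downward, GCNT1 (-1.20, adjusted p = 0.047, and -1.16, adjusted p = 0.034), an enzyme that builds the sugar cores of selectin ligands. Of 5 tested lymphatic genes, which also include CCL21, LYVE1 was altered at 6.7 Gy (1.06, adjusted p = 0.0022). The median change of the venular list was -0.08 and 0.34, and that of the lymphatic list 0.24 and 0.60.

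The leukocyte partners of the members were measured in part. Of 13 listed integrins and selectin ligands 5 were tested, and ITGB7, ITGB2, ITGAM and SELPLG had no probe by symbol. ITGA4, the alpha-4 integrin chain that binds VCAM1 and MADCAM1, changed by -0.78 (adjusted p = 0.061) at 6.7 Gy and -0.76 (adjusted p = 0.044) at 7.4 Gy on day 4. It was altered downward on day 7 after both doses (-1.26, adjusted p = 0.011, and -1.48, adjusted p = 0.0019) and on day 12 at 6.7 Gy (-1.41, adjusted p = 0.04), while at 7.4 Gy its change was -1.29 (adjusted p = 0.081). ITGAL, the chain that binds ICAM1, changed on day 4 by -0.47 (adjusted p = 0.057) at 6.7 Gy and -0.48 (adjusted p = 0.032) at 7.4 Gy, and CD44, a glycoprotein receptor of hyaluronan, was higher at 7.4 Gy (0.72, adjusted p = 0.025). Of the 5 tested genes, 3 were above 0 on day 4 at 6.7 Gy and 2 at 7.4 Gy. ITGB1, the common chain paired with ITGA4, changed by 0.21 and 0.14 on day 4 and did not pass.

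Of the inputs that raise adhesion molecules, 16 of 17 listed cytokine and NF-kB genes were tested, with medians of -0.03 and 0.07 on day 4. TNF changed by -0.17 and -0.04, IL1B by -0.32 and -0.08, and NFKBIA by 0.16 and 0.24, and none passed. IL1R1, the receptor of interleukin-1, was altered at 7.4 Gy (1.06, adjusted p = 0.046). IL6 was altered upward from day 4 to day 12 (1.70, adjusted p = 0.00067) and LTB, which encodes lymphotoxin beta, downward (-1.06, adjusted p = 0.011), with 8 of the 16 genes above 0 and 8 below. Of the 9 tested of 14 listed transmigration molecules none was altered on day 4, with medians of -0.10 and -0.06.

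Around KDR and TEK, 18 of 21 listed VEGF and angiopoietin genes were tested, with medians of -0.01 and 0.17 on day 4. NRP2, a coreceptor of VEGF, was altered at 7.4 Gy (1.04, adjusted p = 0.027), and DLL4, a Notch ligand of endothelial tip cells, passed the adjusted p downward (-0.76, adjusted p = 0.041). The ligands VEGFA (-0.16 and -0.16), ANGPT1 (-0.01 and 0.11) and ANGPT2 (0.38 and 0.61), and the receptors FLT1 (-0.54 and -0.32) and TIE1 (-0.04 and 0.24), did not pass on day 4. On day 7 VEGFA changed by -0.24 and -0.55 and FLT1 by -0.25 and -0.49, which did not pass. Around VWF, 13 of 14 listed haemostasis genes were tested with medians of 0.17 and 0.44 on day 4, none was altered, and ADAMTS13, the protease of VWF, had no probe by symbol. TFPI, an inhibitor of coagulation made by endothelium, passed the adjusted p at 7.4 Gy (0.95, adjusted p = 0.0028).

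Markers of other cells in the gut wall were also measured on day 4, and their part in the changes of the members was not tested. VCAM1 is also made by fibroblasts, macrophages and follicular dendritic cells. Fibroblast markers had a median change of 0.43 and 1.01 (9 of 10 tested, 8 and 9 above 0, with DCN at 1.26, LUM at 1.09 and COL3A1 at 1.01 altered at 7.4 Gy), and their summed level was 6.86 to 7.25 in controls, 7.10 to 7.50 at 6.7 Gy and 7.36 to 7.94 at 7.4 Gy. Macrophage markers had medians of 0.30 and 0.58 (7 of 10 tested, 6 and 7 above 0, CD14 altered at 1.14 at 7.4 Gy), with summed levels of 5.76 to 6.17, 5.57 to 6.53 and 6.34 to 6.55. Follicular dendritic cell markers had medians of 0.36 and 0.42 (6 of 7 tested, 4 above 0 at each dose, SERPINE2 altered at 1.33 at 7.4 Gy), with summed levels of 1.01 to 2.19, 2.11 to 2.90 and 2.39 to 2.99. Also on that list, and named after their values were seen, FDCSP changed by -0.27 and -0.42 and CXCL13 by 0.21 and 0.08, none passing. CR2 had no probe by symbol.

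Pericytes wrap small vessels, and their markers had medians of 0.41 and 0.95 (6 of 8 tested, all 6 above 0, KCNJ8 altered at 1.13 at 7.4 Gy), with summed levels of -0.14 to 2.08 in controls, 1.73 to 2.41 and 2.12 to 2.97. Smooth muscle markers had medians of 0.27 and 0.71 (5 of 8 tested, all 5 above 0, none altered), with summed levels of 6.66 to 8.98, 8.22 to 8.93 and 8.66 to 9.13. Platelet markers, of interest because platelets store VWF and SELP, had medians of -0.21 and 0.08 (4 of 9 tested), with summed levels of 0.58 to 1.16, 0.34 to 0.91 and 0.66 to 1.08. The platelet genes PF4 and PPBP were too dim to test.

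Epithelial markers had medians of -0.50 and -0.59 (8 of 10 tested, 6 below 0 at each dose) and VIL1, the villin of the brush border, altered at -1.32 and -1.27. The keratin KRT20 was altered at 6.7 Gy (-1.05, adjusted p = 0.015). Their summed level was 7.06 to 7.79 in controls, 6.40 to 7.08 at 6.7 Gy and 6.69 to 6.95 at 7.4 Gy. T cell markers had medians of -0.48 and -0.28 (7 of 10 tested, all 7 below 0, none altered), with summed levels of 4.13 to 4.68, 3.67 to 4.16 and 3.99 to 4.27. Among B cell markers, 4 of 10 tested with medians of -0.63 and -0.77, CD79B was altered at -1.29 and -1.25, and the summed levels were -0.03 to 1.55, -0.33 to 0.68 and -0.60 to 0.09. Among red cell markers, 3 of 7 tested with medians of -0.30 and -0.19, HBB was altered at -6.11 and -5.88, with summed levels of 6.84 to 7.28, 6.65 to 6.89 and 6.73 to 6.98.

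**Figure D5:**
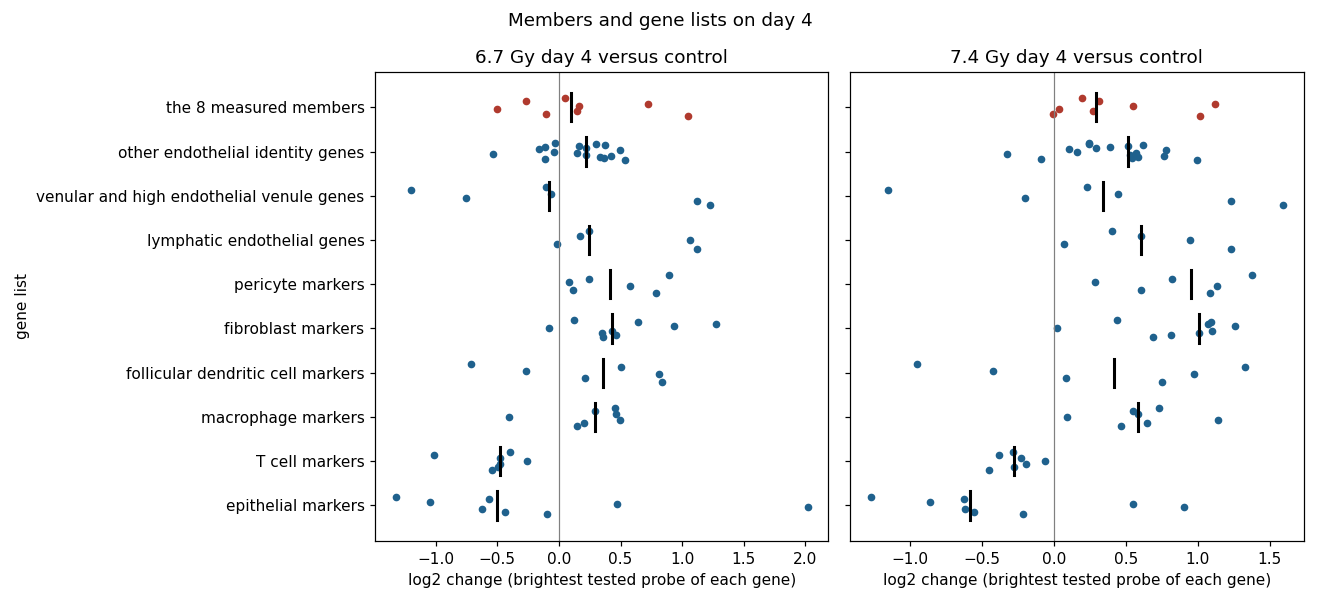
The log2 change against the controls (x axis) on day 4 for the 8 measured members and for the tested genes of 9 lists (y axis), 1 point for each gene and a bar at each median, at 6.7 Gy (left) and 7.4 Gy (right). The members' medians are 0.10 and 0.29, the other endothelial genes' 0.22 and 0.51, and the fibroblast markers' 0.43 and 1.01, while epithelial and T cell markers lie mostly below 0.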

How the data were processed

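The authors hybridized total RNA of 24 ileum samples without pooling to Agilent single-color rhesus arrays and scanned them. Per the file headers, each spot has an intensity from which Feature Extraction (version 11.0.1.1) subtracted the background. The log2 values of the deposited normalized table are the authors' log2 intensities minus the 75th percentile of each array, and each probe is centred on its median. The log2 values used here were computed again from the deposited intensities, with the spots of a probe averaged, the 75th percentile over 43603 probes subtracted and no centring. Only probes well above background in all arrays of some group were tested. Symbols came from the authors' table and, for other genes than the members, from a RefSeq table by accession (8317 probes). No columns of other series were present (0).

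A linear model (limma 3.58.1, R 4.3.3) gave every probe a mean for each of the 7 groups and a common spread over the 24 arrays. Figures were drawn with matplotlib 3.10.9. Each array is 1 animal, with no technical replicates. In data simulated for day 4 after 7.4-Gy TBI with 36108 probes, 84 of 100 probes changed by 1.5 on the log2 scale and 96 of 100 changed by 3 were recovered, with 7 false calls. The simulated probes varied independently, with no effect of position or scan day. Both sizes exceed the member changes called on day 4, and recovery at those smaller sizes was not simulated.

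The members, 18 gene lists and tests were chosen with earlier results of these data known. The text names the 10 members, fixed partner genes, at most the 4 largest called genes for each list and comparison, and the 3 genes closest to each member by Pearson r. Genes of a list below the fold limit, ADGRL4, MYCT1, TFPI, CD44, DLL4, FDCSP, CXCL13, CDX2, EPCAM, PF4 and PPBP, were named after their values were seen. A summed level is log2 of the summed signals of the tested genes of a list, relative to the 75th percentile. The alternatives were quantile normalization, normexp (offset 50) on the median signals, as these are the raw signals in the deposited files, the deposited table, other filters and probe choices, blocks for slide, position, replicate number and scan day, other fits, the methods' t-test and each array left out. The result of 1 listed leukocyte gene is not reported here, though it is counted in its list.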

Additional observations from a re-analysis of the deposited data

Results flagged for a closer look

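The control replicate 4 of PECAM1, at 0.54, stood apart from the other 3 controls, whose nearest value was -0.54 and farthest -0.66. The gap was 0.898 of the range of the group, above Dixon's limit at 95% for 4 samples. Of the 40 groups examined this way 1 exceeded the limit, and chance gives about 1 in 20.

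Levels differed between days, with the doses averaged. All day 4 arrays lay at positions 1 and 2 of their slide and all arrays of days 7 and 12 at positions 3 and 4, so day and position cannot be told apart. From day 4 to day 7 the difference was -0.78 for VCAM1, -0.39 for CDH5 and -0.81 for KDR. From day 4 to day 12 it was -0.95 for VCAM1, -0.50 for SELP, -1.34 for VWF and -0.76 for KDR. All 7 passed limma's test of the difference at an adjusted p under 0.05, and only VWF passed the 2-fold limit.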

How the results depend on the processing

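The number of altered members on day 4 depended on the setting. After 6.7-Gy TBI, where 1 was altered, the count was 0 with array position as a covariate, without the filter on dim probes, on the arrays of the first scan day, with only the groups compared in the fit, with the replicate number, the scan day or the slide as a block, and by the methods' t-test after adjustment. After 7.4-Gy TBI, where 2 were altered, it was 0 with array position, on the first scan day and by that t-test, and 1 without the filter, with only the groups compared, with the scan day or the slide as a block, and with both doses averaged. From day 4 to day 7, where 0 were altered, it was 1 on the first scan day (VCAM1). On day 12 at 7.4 Gy the methods' t-test without adjustment called 1 (KDR). The scan day block, the first scan day, the averaged doses and the values relative to other endothelial genes were chosen after seeing the data. Leaving out 1 array gave counts from 0 to 2 at 6.7 Gy, 0 to 2 at 7.4 Gy, and 1 to 2 from day 4 to day 12.

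Against the controls, same-numbered arrays deviated together (Pearson r over 0.1) in 2, 0, 2 and 1 of 4 pairs on days 4 and 7 and in 1 and 0 of 2 pairs on day 12. Differently numbered arrays did so in 0, 4, 1 and 0 of 12 pairs and in 0 and 0 of 6. At 6.7 Gy the same-numbered medians were 0.12 and 0.12 on days 4 and 7, beside -0.03 and -0.02. At 7.4 Gy they were -0.06 and 0.02, beside 0.01 and -0.01. Whether same-numbered arrays share a factor was not tested. With the replicate number as a block the counts of altered members were 0 at 6.7 Gy on day 4 and 2 from day 4 to day 12, where VCAM1 joined VWF.

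Small changes turned their sign under some settings, and none of these had passed the test. With array position as a covariate ICAM1 and KDR on day 4 at 7.4 Gy were 0.17 and -0.036. With the mean of the tested probes CDH5 on day 7 at 7.4 Gy was 0.10, TEK on day 4 at 6.7 Gy was -0.29, and ICAM1 was 0.038 and 0.16 on day 4, 0.11 and 0.087 on day 7, and 0.00018 from day 4 to day 7. With normexp CDH5 on day 7 was 0.033 and 0.000653, ICAM1 on day 12 at 7.4 Gy was -0.0086, PECAM1 on day 4 at 7.4 Gy was -0.027, and the dose difference of VCAM1 on day 4 was 0.0075. On the first scan day CDH5 on day 7 at 7.4 Gy was 0.0204, ICAM1 on day 4 at 7.4 Gy was 0.0703, TEK on day 4 at 6.7 Gy was -0.13, VCAM1 on day 7 at 7.4 Gy was -0.22, and the dose difference of VCAM1 on day 4 was 0.0709. With the scan day as a block CDH5 on day 12 and ICAM1 on day 4 at 7.4 Gy were 0.0298 and 0.00645. With the slide as a block CDH5 at 7.4 Gy was 0.0639 on day 12 and 0.0624 on day 7, and PECAM1 on day 4 was -0.0303. The causes were not tested.

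Without 1 array in turn, CDH5 ranged from -0.12 to 0.038 on day 7 at 6.7 Gy, and at 7.4 Gy from -0.13 to 0.031 on day 7 and -0.23 to 0.17 on day 12. On day 4 at 7.4 Gy ICAM1 ranged from -0.039 to 0.046 and PECAM1 from -0.084 to 0.31. SELP ranged from -0.033 to 0.29 on day 4 and -0.23 to 0.058 on day 12 at 6.7 Gy, and from -0.10 to 0.16 on day 7 at 7.4 Gy. TEK ranged from -0.22 to 0.19 on day 4 at 6.7 Gy. VCAM1 ranged from -0.82 to 0.41 on day 12 at 6.7 Gy, from -0.041 to 0.23 on day 7 and -0.11 to 0.84 on day 12 at 7.4 Gy, and from -0.17 to 0.044 between the doses on day 4. VWF at 6.7 Gy ranged from -0.12 to 0.31 on day 7 and -0.60 to 0.0027 on day 12.

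In all, 971 single-gene changes under other settings kept their direction and side of the threshold, 24 turned, 18 lost and 3 gained their call, and without 1 array 587 kept, 33 turned, 16 lost and 4 gained. Most of these changes were never called. The calls on day 4 were kept in 7 and 10 of 15 settings for VCAM1 and 10 of 15 for VWF. Without 1 array they were kept in 2 and 3 of 8 fits for VCAM1 and 3 of 8 for VWF. The call of VWF from day 4 to day 12 was kept in 13 of 13 and 12 of 12. The small number of arrays, above all the 2 animals of each dose on day 12, limits what was detectable, and SELE was too dim.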
